A study of Homo sapiens with 4 samples.

Results

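WSB1, WSB2, CISH and SOCS1 to SOCS7 encode the 2 WD repeat proteins with a SOCS box and the 8 members of the CIS and SOCS family, and their transcripts were followed in U937 cells with and without a hairpin against PIR, the pirin gene. The members were chosen by gene symbol: every probe set whose platform annotation gave 1 of these 10 symbols alone was taken. This gave 31 probe sets for all 10 genes, out of 41091 probe sets for 19775 genes. A further probe set was annotated to WSB1 together with another gene and was left out. The family was chosen with the difference of WSB2 between the conditions already known, so its values describe these arrays and support nothing beyond them.

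U937 is a human line with monocytic features, established from a histiocytic lymphoma. The knock-down cells carried the shPIR#7 hairpin in the lentiviral pSICO-R vector, and per the series design text pirin was no longer detected in them by Western blotting. The control cells carried the same vector with no insert. A single hairpin was used, and the labels give no genotype, clone or treatment beyond this. For each condition, RNA from 3 extractions was mixed into 1 pool and each pool was hybridised to 2 HG-U133 Plus 2.0 arrays, so 4 arrays stand for 2 pools. Every SD below is therefore between 2 arrays of the same RNA, and no p-value for the condition can be given.

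The SOCS box is a short domain that binds elongins B and C and, through them, a cullin and a RING protein, so that its carrier works as the substrate receptor of a ubiquitin ligase. In CIS and the SOCS proteins a central SH2 domain binds phosphotyrosines of activated cytokine receptors and kinases. SOCS1 and SOCS3 also block Janus kinases directly, and CISH, SOCS1, SOCS2 and SOCS3 are induced by the STAT factors that they restrain. In WSB1 and WSB2, WD repeats take the place of the SH2 domain. In monocytic cells CIS, SOCS1 and SOCS3 are the members best known for limiting signals of interferons, interleukin-6 and the colony-stimulating factors.

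Promoter sequences of 3 members show the letters upstream of their starts. RefSeq windows (GRCh38.p14) were at hand for 7 of the 10 genes, namely WSB1, WSB2, CISH, SOCS1, SOCS3, SOCS4 and SOCS6, and the 250 bases before each start were searched on both strands. CISH is shown because it is the textbook target of STAT5, a factor that binds the palindrome TTCNNNGAA (the GAS element), and its capitals mark the 4 matches, none of which overlap. They begin 241, 230, 129 and 112 bases before the start, and read TTCCTGGAA, TTCTTGGAA, TTCTAGGAA and TTCCGGGAA. WSB2, the member with the largest difference, is shown at the downstream one of its 2 annotated starts, since the window of the other held none of the motifs searched, and WSB1 is shown as its closest relative. In both WSB sequences capitals mark the GC box GGGCGG on either strand, which has 3 matches in this WSB2 window and 2 in WSB1. The CISH window also holds 3 GC boxes, left in lower case. CISH lies on the minus strand at chr3:50611775-50612024, WSB2 on the minus strand at chr12:118061180-118061429 and WSB1 on the plus strand at chr17:27293864-27294113.
CISH: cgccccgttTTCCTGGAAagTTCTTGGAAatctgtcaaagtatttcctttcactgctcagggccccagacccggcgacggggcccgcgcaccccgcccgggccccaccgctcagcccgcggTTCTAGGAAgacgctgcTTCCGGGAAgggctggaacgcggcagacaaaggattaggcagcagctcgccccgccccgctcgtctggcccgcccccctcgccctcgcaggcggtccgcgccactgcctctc
WSB2: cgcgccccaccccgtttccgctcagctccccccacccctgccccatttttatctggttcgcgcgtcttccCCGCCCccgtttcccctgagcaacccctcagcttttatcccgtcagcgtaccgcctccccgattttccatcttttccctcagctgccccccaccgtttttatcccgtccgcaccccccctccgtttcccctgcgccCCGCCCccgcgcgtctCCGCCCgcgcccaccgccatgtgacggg
WSB1: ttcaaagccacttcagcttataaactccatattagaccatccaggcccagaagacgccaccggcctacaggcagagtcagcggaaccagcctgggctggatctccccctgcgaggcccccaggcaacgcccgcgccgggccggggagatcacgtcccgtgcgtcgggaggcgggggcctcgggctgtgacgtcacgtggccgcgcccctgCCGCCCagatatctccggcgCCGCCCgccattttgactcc

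The GAS palindrome occurred in 6.57% of all 35116 RefSeq windows of this length, and among the 9 windows of these genes only that of CISH held it. The GC box occurred in 42.6% of all windows and in 6 of these 9, at least 1 each of WSB1, WSB2, CISH, SOCS1, SOCS4 and SOCS6. The kappaB decamer, the site of the NF-kB factors with which pirin is known to associate, occurred in 9.96% of all windows and among these genes in SOCS1 alone. A match describes the letters of the window and is not a bound site. No match says only that these letters are not in these 250 bases.

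The median signal was 62.5 and 68.5 on the knock-down arrays, below the 70.8 and 72.1 of the empty-vector arrays, and the part of this gap in the results was not tested beyond the alternative scalings. The ratio of 3' to 5' signal ran from 0.959 to 1.02 for GAPDH and from 1.17 to 1.18 for ACTB, with the pools interleaved in both. PIR, the target of the hairpin, had signals of 83.4 and 91.5 with the hairpin and of 1813 and 1882 with the empty vector, which is the direction of the labels. Of 10 myelomonocytic markers 8 were measured, while MPO and FCGR1A were below the limit, and none was called. The differences of the 8 went both ways, from 0.84 for CD4 (a mean signal of 2133 with the hairpin against 1187) to -0.69 for AZU1 (8368 against 13472). LYZ, ELANE and CTSG had 0.01, 0.41 and 0.23, and SPI1 had -0.13. The summed signal of the 10 markers was 109300 and 113150 with the hairpin and 99428 and 101710 with the empty vector. None of the markers of T cells, erythroid or epithelial cells was measured, and of those of B cells and of fibroblasts and endothelium only CD79A and COL1A1 were.

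A gene counts as measured here when, in either pool or in both, neither array fell below its own 60th percentile of signal (the brightness limit). Each gene is read from its brightest probe set, and differences are knock-down minus empty vector on the scale of log2(signal + 18), so folds of dim genes come out too small. Lower or higher is called when 3 conditions hold: the pools differ by 2-fold or more, each of the 4 comparisons of single arrays gives 0.5 or more the same way, and the brighter pool passes the brightness limit. By this size rule, 1.10% of the 10288 measured genes were lower and 2.44% were higher. In these pooled samples, fewer cells with a transcript and less transcript per cell cannot be told apart.

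WSB2 was the only family gene called, and it was lower in the knock-down pool. Little is established about its substrates compared with those of WSB1. Its single probe set, 201760_s_at, gave signals of 501.1 and 471.0 with the hairpin and of 1621 and 1597 with the empty vector. The knock-down arrays thus lay far below both control arrays, with a gap many times the spread within either pool. The means were 486.1 ± 21.3 (SD, n = 2 arrays) and 1609 ± 17.0, which is -1.69 on the log2 scale (3.23-fold), and single arrays compared pair by pair gave -1.75 to -1.64. Of all measured genes, 13 had a more negative difference. Both pools were above the brightness limit, and the difference was -1.73 with no pseudocount and -1.59 with one of 72. There is no second WSB2 probe set with which to compare it.

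WSB1, a substrate receptor for the kinase HIPK2 and the type 2 deiodinase that is induced by hypoxia, was also lower in signal but did not reach the 2-fold limit. Its brightest probe set, 201296_s_at, read 2367 and 1947 on the knock-down arrays against 2796 and 2945. Both knock-down arrays lay below both controls, and the difference was -0.42, or 1.33-fold. The probe set 210561_s_at, of like brightness, read 2075 and 2131 against 2904 and 2659 and gave -0.40. All 5 WSB1 probe sets had negative differences without overlap of the arrays, from -0.33 for the dim 201295_s_at to -0.64 for 213406_at. The latter read 74.0 and 83.9 against 137.7 and 127.7, so the largest WSB1 difference comes from a probe set near the brightness limit. It passed that limit only in the empty-vector pool, where it is higher, and so did 201294_s_at. The probe sets share the same RNA, so their accord repeats the measurement of the pools and not of the condition. The difference between the pools was 1.28 larger on the log2 scale in WSB2 than on the brightest WSB1 probe set.

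**Figure D1:**
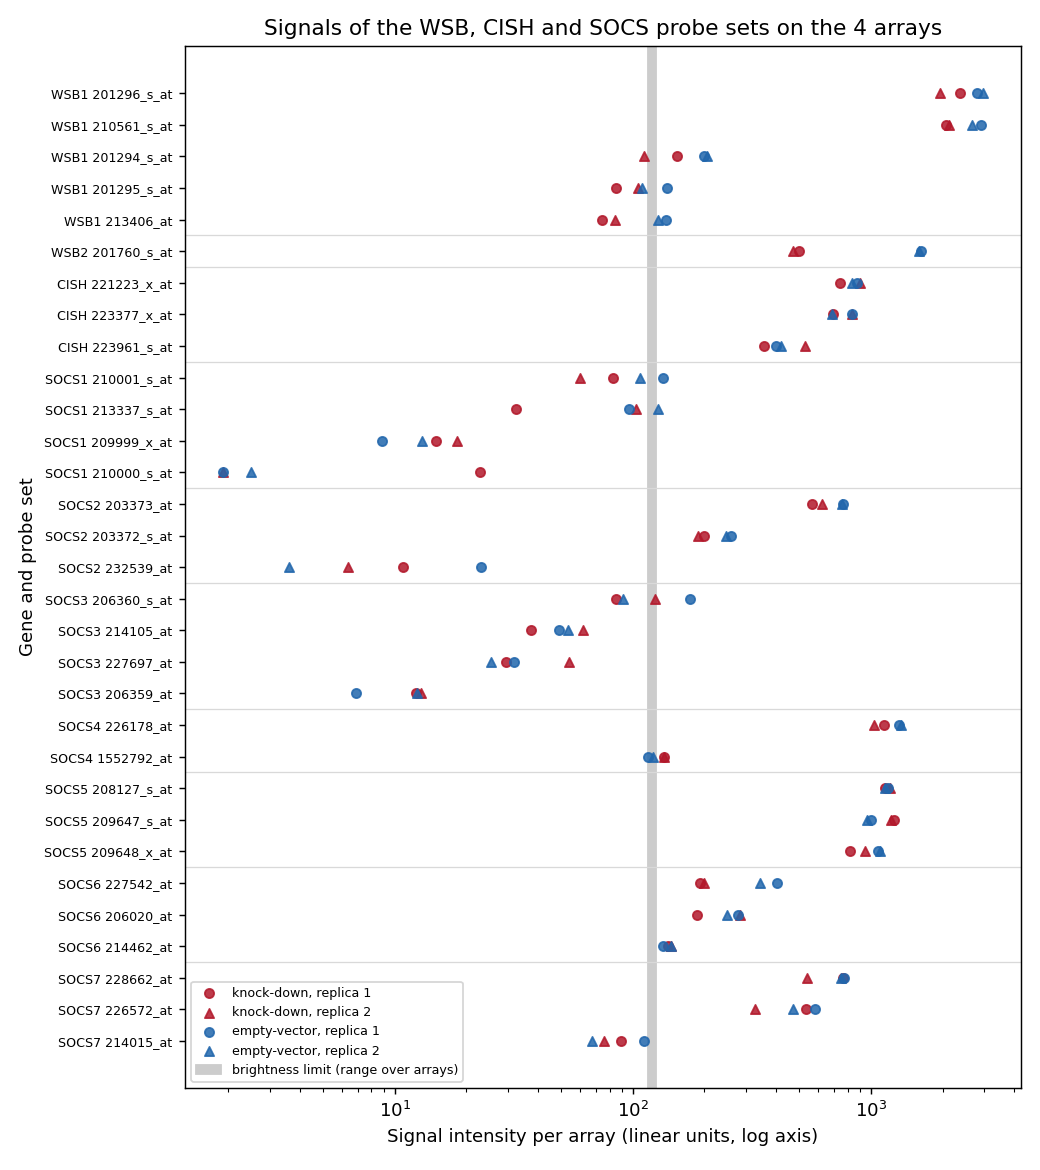
Signal intensity on a log axis for the 31 probe sets of the 10 genes, with red points for the knock-down arrays, blue points for the empty-vector arrays, circles for replica 1 and triangles for replica 2; the grey band is the range of the brightness limit over the arrays. WSB2 is the row with the widest separation of colours among bright probe sets, at 501.1 and 471.0 against 1621 and 1597, while all SOCS3 rows mix the colours.

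CISH encodes CIS, which competes with STAT5 at activated cytokine receptors, and did not separate the pools. Its brightest probe set, 221223_x_at, read 740.7 and 901.9 with the hairpin and 878.0 and 834.5 with the empty vector. The arrays overlapped, and the difference was -0.07 with array-by-array values from -0.24 to 0.11. The other CISH probe sets, 223377_x_at and 223961_s_at, gave 0.002 and 0.08 and overlapped too. Of these, 223961_s_at had the larger spread within the knock-down pool, with 355.5 on replica 1 and 529.4 on replica 2. The sign of the CISH difference turned positive under median scaling (0.06). The identifiers ending in _x_at mark probes that can match other transcripts.

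SOCS2, a STAT5-induced regulator of growth hormone receptor turnover, read 568.3 and 625.8 with the hairpin and 763.2 and 759.1 with the empty vector. Both knock-down arrays lay below both controls, by 1.27-fold on the means (log2 difference -0.34), short of the size rule. Its second measured probe set, 203372_s_at, read 198.8 and 188.2 against 258.7 and 247.7 and gave -0.36, close to the first. The third, 232539_at, was at 23.0 or less on every array. SOCS2 and CISH, which share STAT5 as an inducer, thus had differences of -0.34 and -0.07, of which only the former was free of overlap; the difference between these genes was not tested.

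SOCS1 and SOCS3, the members that block Janus kinases directly, were not measured on any probe set. The brightest SOCS1 probe set, 210001_s_at, read 82.3 and 60.3 with the hairpin and 133.7 and 107.2 with the empty vector. These arrays did not overlap, but the 4 SOCS1 probe sets ran from -0.73 to 0.50, so no direction is given. The brightest SOCS3 probe set, 206360_s_at, read 84.7 and 124.6 against 173.6 and 90.7, with the arrays interleaved. Its difference of -0.25 turned to 0.15 without empty-vector replica 1 and became -0.66 without empty-vector replica 2. All 4 SOCS3 probe sets overlapped between the pools.

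SOCS4 and SOCS5, which are known to promote turnover of the epidermal growth factor receptor, had probe sets that went opposite ways. SOCS4 read 1141 and 1030 on the knock-down arrays against 1311 and 1335 on its brightest probe set, 226178_at, a difference of -0.28 without overlap. Its dim probe set 1552792_at read 136.0 and 135.8 against 115.5 and 122.3, a difference of 0.17, also without overlap. This probe set reached the brightness limit in the knock-down pool alone, and so counts as measured only through the pool where it is higher.

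The 3 SOCS5 probe sets were of similar brightness and gave 3 different answers. The brightest, 208127_s_at, read 1143 and 1200 against 1178 and 1142 and overlapped, with a difference of 0.01. The probe set 209647_s_at read 1257 and 1216 against 1002 and 967.9, so that both knock-down arrays were higher, by 0.32. The probe set 209648_x_at read 821.2 and 946.6 against 1069 and 1094, so that both were lower, by -0.29. The differences of these probe sets spanned 0.61. Array by array they ran from -0.04 to 0.07 on 208127_s_at, from 0.28 to 0.37 on 209647_s_at and from -0.41 to -0.17 on 209648_x_at. The largest SD of single arrays within a pool was 0.14. Whether the probe sets report different transcripts was not tested.

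SOCS6, which binds the receptor KIT and insulin signalling proteins, had the second most negative difference of the measured members, on 1 of its 3 probe sets. On 227542_at the knock-down arrays read 191.2 and 198.5 and the empty-vector arrays 402.7 and 342.0. Both knock-down arrays lay below both controls, by 1.83-fold (log2 difference -0.87, array by array from -1.01 to -0.73), which missed the 2-fold limit. The other probe sets did not follow it. On 206020_at the signals were 186.2 and 281.2 against 275.6 and 249.1, with overlap and a difference of -0.18. On 214462_at they were 140.3 and 145.2 against 134.7 and 145.3, a difference of 0.03. Averaged over all 3 probe sets, the SOCS6 difference was -0.34.

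SOCS7, an adaptor-binding member that moves between nucleus and cytoplasm, overlapped on all of its probe sets. The brightest, 228662_at, read 762.8 and 538.1 with the hairpin and 773.7 and 750.9 with the empty vector, a difference of -0.24. Knock-down replica 2 was low on this probe set, and on 226572_at it read 325.6 against 535.7 on replica 1. Without knock-down replica 2 the difference was 0.001, and without replica 1 it was -0.49.

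Over the family, 8 of 10 genes and 20 of 31 probe sets were measured. Of the 8 measured genes, 1 was called lower and none higher, beside 1.10% and 2.44% of all measured genes. A negative difference was found in 7 of the 8, beside 4608 of all 10288 measured genes. The family median was -0.31, beside a median of 0.05 over all measured genes. The arrays did not overlap for 5 genes, WSB1, WSB2, SOCS2, SOCS4 and SOCS6, all of them lower in the knock-down pool. Over all measured genes 31.2% were lower without overlap and 40.9% higher, and since the family was chosen with these results known nothing is read from the count. At the level of probe sets, 1 of 20 was called lower, 10 were lower without overlap and 2 were higher (1 of them the dim SOCS4 probe set), beside 1.42%, 32.3% and 38.5% of all measured probe sets with 1 symbol. None was called higher, beside 2.39%. Among the 10, the WSB1 probe sets 201294_s_at and 213406_at count as measured only through the empty-vector pool, where they are higher. With a limit of 1.5-fold in place of 2-fold, SOCS6 was called lower as well (3.80% of genes), as was the WSB1 probe set 213406_at (4.63% of probe sets). In order of their differences the genes were WSB2, SOCS6, WSB1, SOCS2, SOCS4, SOCS7, CISH and SOCS5. The array-by-array ranges of WSB2 and of SOCS6 met no other gene's, whereas from WSB1 to SOCS5 each range met that of its neighbour in this order.

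**Figure D2:**
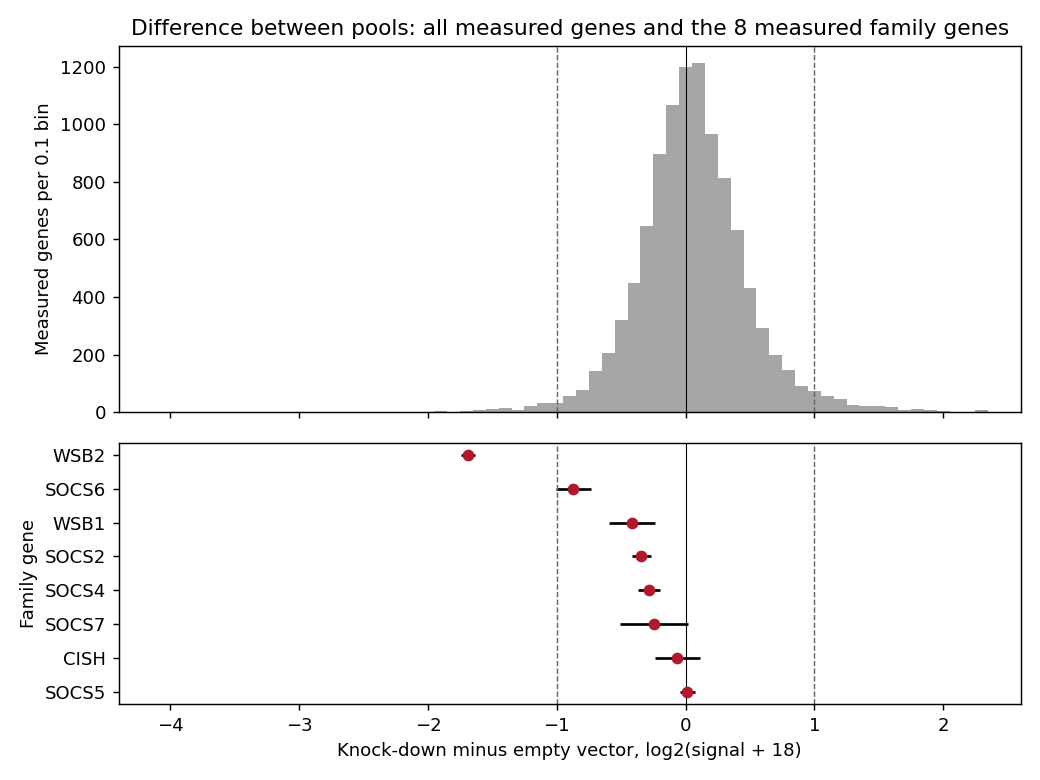
The upper panel counts the 10288 measured genes by their difference between pools (knock-down minus empty vector, log2 of signal + 18, bins of 0.1), and the lower panel gives the 8 measured family genes on the same axis, with points for the difference and bars for the range of the 4 array-by-array differences. WSB2 at -1.69 lies beyond the dashed line at -1, which marks 2-fold, and the other 7 lie between -0.87 and 0.01.

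The ligase that the SOCS box recruits was measured through 10 genes, and none was called. Over all 10288 measured genes 4608 had a negative and 5680 a positive difference, and the signs in each list stand beside these counts. Of the 10 ligase genes 9 had a negative difference, and the median was -0.16. Under median scaling 7 were negative, with a median of -0.03. The gene with the largest difference was ARIH2, a ligase that works with cullin-5 complexes, at 1163 and 1287 on the knock-down arrays against 1876 and 2004 (-0.66). Its other 4 probe sets gave from -0.25 to 0.25. Named after their values were seen, CUL5, the cullin of SOCS box ligases, had -0.32, and the elongin genes ELOC and ELOB had -0.14 and -0.03.

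Other proteins with a SOCS box, of the ASB, SPSB and RAB40 families among others, had 13 measured genes, none called, of which 10 were positive with a median of 0.23. RAB40B, a small GTPase, had the largest difference, with 440.9 and 324.0 against 215.9 and 180.3 (0.88), but its probe set 217597_x_at was called lower at -1.16. That dim probe set read 52.2 and 84.5 against 196.1 and 150.8, and passed the brightness limit only in the empty-vector pool, where it is higher. Of the genes named as substrates or partners of the WSB proteins, 6 were measured and none was called. Of these, 3 were positive and 3 negative, with a median of 0.01. VHL, itself a substrate receptor of a cullin ligase and known to be degraded through WSB1, read 211.2 and 212.8 against 338.4 and 337.3 (-0.63). Of the substrates and partners of SOCS proteins, 5 were measured, 3 positive and 2 negative with a median of 0.04, and none was called. The largest value among them was that of IRS1, the insulin receptor substrate, at -0.39 with overlapping arrays (172.1 and 90.9 against 205.2 and 140.5). It has no settled sign: leaving out the second hairpin array gave 0.02, leaving out the first gave -0.79, and the mean over its probe sets was 0.14.

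Upstream of the SOCS proteins, the cytokine receptors that use Janus kinases had 18 measured genes, of which 16 were positive, 1 was called higher and none lower. Over all 10288 measured genes 5680 were positive, 2.44% were called higher and 1.10% lower. The median of the receptors was 0.41, and it was 0.41 and 0.53 under quantile normalization and median scaling. The called gene was IL7R, the interleukin-7 receptor chain, which read 232.6 and 271.6 with the hairpin and 74.7 and 76.4 with the empty vector. That is a 2.88-fold difference from a control signal below the brightness limit. The other IL7R probe set gave 1.94 and was called too. Both IL7R probe sets passed the brightness limit only in the knock-down pool, where they are higher. IL7R lost its call with a brightness limit at the 75th percentile. Of the Janus kinases and STATs, 8 were measured, 6 were positive and none was called. JAK2, a kinase used by the colony-stimulating factor receptors, had the largest difference, with 319.1 and 419.7 against 216.3 and 241.4 (0.64). Its other measured probe set, 205841_at, gave 0.57, but passed the brightness limit only in the knock-down pool, where it is higher. A dim one, 1562031_at, gave -0.77, and the mean over the JAK2 probe sets was 0.15. STAT5A and STAT5B, inducers of CISH and SOCS2 named here after their values were seen, had -0.30 and -0.26.

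Among other inhibitors of this signalling, 11 were measured, 6 positive and 5 negative, with no call and a median of 0.05. The largest difference was that of PTPRC, the CD45 phosphatase, with 4974 and 5675 against 3347 and 3236 (0.69). Of the STAT target genes, 15 were measured, 9 positive and 6 negative, 1 called higher and 1 lower, with a median of 0.08. FOS, the AP-1 subunit, read 1097 and 1081 against 485.8 and 513.6, a 2.14-fold higher signal. ID1, an inhibitor of basic helix-loop-helix factors, read 341.1 and 284.2 against 668.3 and 679.8 and was 2.10-fold lower. ID1 lost its call under median scaling (-0.95), with a pseudocount of 72 (-0.96) and without knock-down replica 2 (-0.95). Other genes of this list, named after their values were seen, went both ways. BCL6 had 0.85, BCL2L1 0.68, IRF1 0.49, MYC 0.28 and PIM1 0.24, while MCL1 had -0.33, CCND2 -0.25 and PIM2 -0.13. The arrays of PIM2 overlapped. Over all lists, with each gene counted once, 2 of 86 measured genes were called higher and 1 lower, beside 2.44% and 1.10% of all measured genes. With a 1.5-fold limit they were 7 and 3, beside 6.98% and 3.80%.

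**Figure D3:**
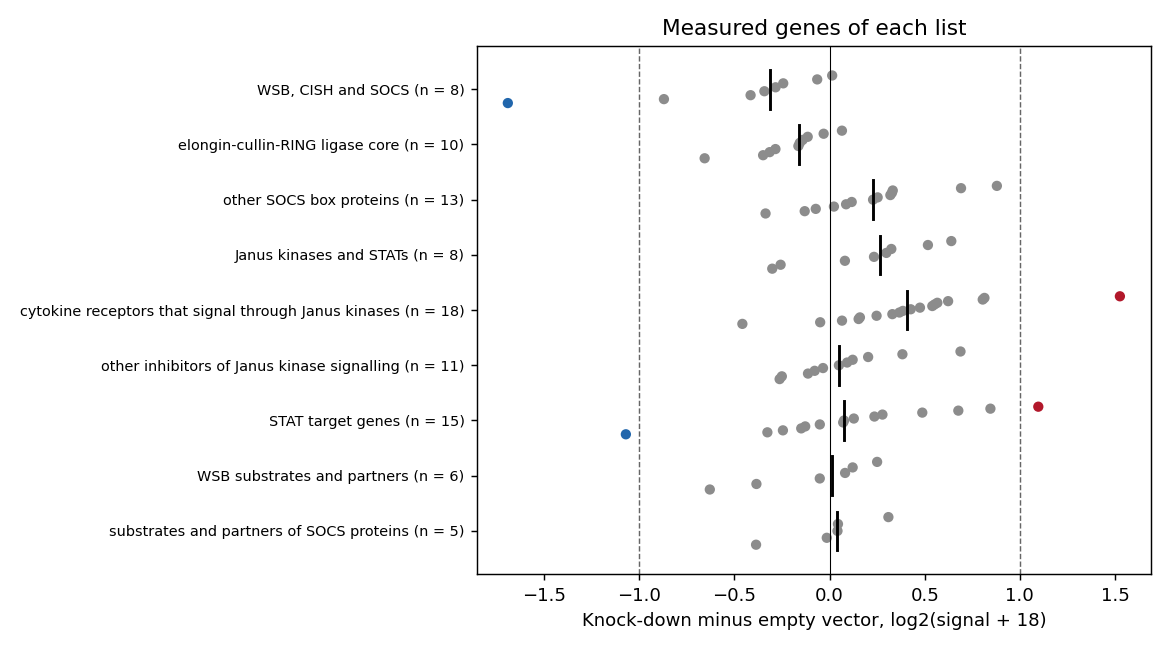
Difference between pools (knock-down minus empty vector, log2 of signal + 18) for each measured gene of the family and of the 8 lists, with a black bar at each list's median, dashed lines at 2-fold, and red and blue for genes called higher and lower. The called genes are WSB2 and ID1 on the left and IL7R and FOS on the right, and the median runs from -0.31 for the family to 0.41 for the cytokine receptors.

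The genes whose values were nearest to those of WSB2 over the 4 arrays, after each gene was centred on its own mean, were DDX5, VRTN and MCCC2. DDX5, an RNA helicase, lay at a Euclidean distance of 0.12 on the log2 scale, with signals of 531.3 and 480.2 against 1630 and 1500. VRTN lay at 0.18, from a dim probe set at 42.5 and 34.5 against 144.2 and 147.8. This probe set passed the brightness limit only in the empty-vector pool, where it is higher. MCCC2, a carboxylase subunit of leucine breakdown, lay at 0.19 with 845.2 and 841.2 against 2470 and 2408, and its second measured probe set gave -0.93. With 2 pools, such likeness says only that these genes had a difference of the same size.

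**Figure D4:**
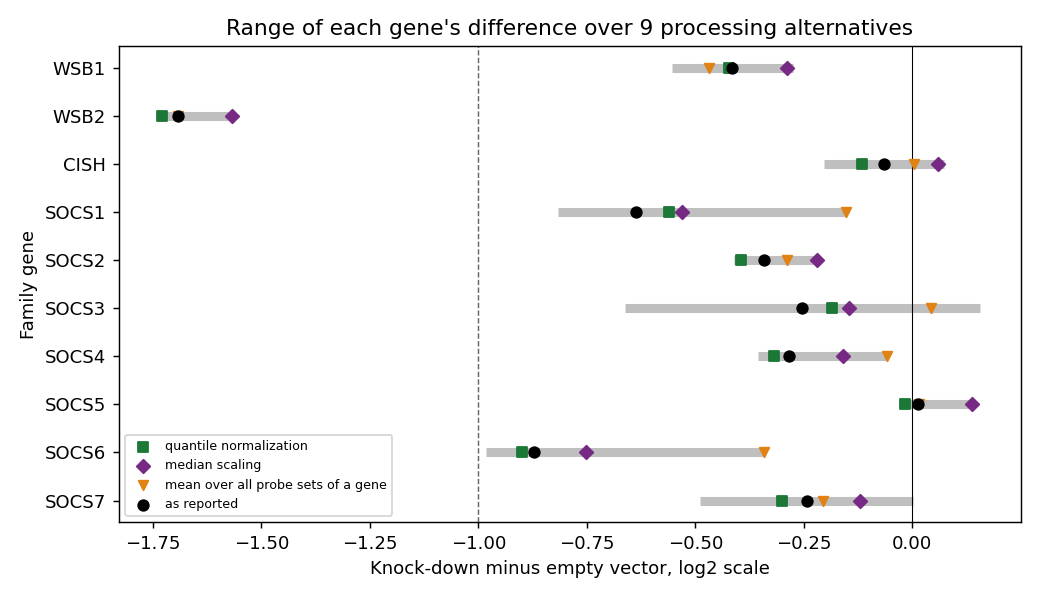
Difference between pools of each family gene on the log2 scale, with black points for the values reported, coloured markers for both alternative scalings and for the mean over all probe sets, and grey bars for the full range over 9 alternatives that bear on the value. The WSB2 bar stays beyond the dashed 2-fold line, from -1.73 to -1.57, and the bars of CISH, SOCS3, SOCS5 and SOCS7 reach both sides of 0.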

How the data were processed

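The authors hybridised 1 RNA pool per condition to 2 arrays each, per the series design text, and the deposited table holds linear signal intensities, 1 for each probe set on each array. The submitters' processing notes name GCOS; for its settings, nothing is stated in the labels. The mean intensity after trimming 2% at each end was 500.07 on every array, so each was scaled to a common level. Detection calls were not used here. Precision is limited by having 1 RNA pool per condition, since the 2 arrays of a pool repeat the same RNA.

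Control probe sets (62 of 54675) were left out. The pseudocount of 18 is the rounded mean of the arrays' 25th percentiles. Probe sets were named from the platform annotation, and for 41037 of the 41091 probe sets with 1 symbol the gene identifier was found in RefSeq. Arrays of a pool were averaged as 1 sample. The members, lists and the size rule were chosen with earlier results of these data known. Named genes were the members, PIR, up to 4 called genes per list or else its largest difference, and the 3 nearest to WSB2. Alternatives changed the pseudocount, brightness limit, scaling, fold limit, margin, probe set choice and arrays. Python 3.11.15, pandas 2.3.3, numpy 2.4.6 and matplotlib 3.10.9 were used.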

Additional observations from a re-analysis of the deposited data

How the results depend on the processing

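WSB2 was called lower under all 13 alternatives, with differences from -1.73 to -1.57, and no family gene was called higher under any. Several of the 13 could not remove the WSB2 call. The 1.5-fold limit and dropping the margin or the brightness limit only loosen the rule. With its single probe set, the mean over probe sets is the same value, and the arrays left out repeat the same RNA. With a 1.5-fold limit, 2 family genes and 3 probe sets were lower, SOCS6 and the WSB1 probe set 213406_at joining WSB2. Then 7 genes of the lists were higher and 3 lower, beside 6.98% and 3.80% of all measured genes. Called genes of the lists numbered 0 lower with a pseudocount of 72 and under median scaling, 2 lower without a brightness limit, and 1 higher under a brightness limit at the 75th percentile. With single arrays left out they ran from 0 to 2 lower and from 2 to 3 higher: 0 lower without knock-down replica 2 and 2 lower without empty-vector replica 2. Median scaling moved the median of all genes from 0.05 to 0.17, and under it 6 of the 8 measured family genes stayed negative, while under quantile normalization all 8 were negative. The signs of CISH, SOCS5, SOCS7 and the dim SOCS3 were not stable. No paired analysis was possible because the 2 arrays of a condition repeat 1 RNA pool and the results come from no test. The brightness limit leaves SOCS1 and SOCS3 without a usable value.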
